A study of Homo sapiens with 131 samples.

Results

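The clustered protocadherins are 53 of the 45404 genes that carry both a copy state and RNA values in single HAP1 cells. They were chosen by gene name, as every PCDHA, PCDHB or PCDHG gene on chromosome 5, and the pseudogene PCDHA14 was left out. The alpha subcluster held 15 genes, PCDHAC1 and PCDHAC2 included, the beta subcluster 16 and the gamma subcluster 22. HAP1 is a nearly haploid human line that came from the chronic myeloid leukaemia line KBM-7. Cells were sorted in mid-S phase, when part of the genome has been copied, and the DNA and mainly cytoplasmic RNA of each cell were sequenced side by side. The labels name 63 mid-S cells from 1 experiment, of which 56 are in the tables analysed here, and 5 libraries of G1 cells whose DNA served the authors as the unreplicated baseline. No cell was treated and no gene was edited, so the comparison within the data is between cells in which a gene had been replicated (2-copy) and cells in which it had not (1-copy).

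Clustered protocadherins are cell-surface adhesion proteins that bind copies of themselves on neighbouring cells. They are best known in neurons, where each cell switches on its own small combination of promoters, which gives it a surface identity. In the alpha and gamma subclusters each gene has its own large first exon, which encodes the part outside the cell, spliced to constant exons shared by the whole subcluster, whereas beta genes have a single large exon. The 5 C-type genes (PCDHAC1, PCDHAC2, PCDHGC3, PCDHGC4 and PCDHGC5) lie at the 3′ ends of their subclusters, and in neurons they are used more widely than the other genes. Promoter choice is known to involve the DNA-looping protein CTCF, cohesin and DNA methylation.

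The cluster runs from chr5:140786136 to 141512979 (hg38, 727 kb), with alpha first, then beta, then gamma, all on the plus strand. Most promoters of the cluster carry a short conserved element with CGCT at its core, shown here because it is the feature that the members share in sequence. RefSeq promoters (GRCh38.p14, 250 bases before to 50 after the start) were matched to 47 of the 53 members by symbol. PCDHA3, PCDHA13, PCDHB6, PCDHB11, PCDHGA12 and PCDHGC5 had no match. In the following stretches, each of 60 bases on the plus strand and ending before the RefSeq start, capitals mark the element.
PCDHA1, chr5:140786074-140786133: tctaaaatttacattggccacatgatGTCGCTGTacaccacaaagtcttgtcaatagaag
PCDHA10, chr5:140855829-140855888: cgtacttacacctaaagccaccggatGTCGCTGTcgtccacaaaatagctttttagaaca
PCDHB16, chr5:141182296-141182355: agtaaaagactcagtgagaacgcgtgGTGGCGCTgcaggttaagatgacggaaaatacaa
PCDHB9, chr5:141187060-141187119: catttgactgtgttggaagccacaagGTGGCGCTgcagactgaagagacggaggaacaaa
PCDHB13, chr5:141213851-141213910: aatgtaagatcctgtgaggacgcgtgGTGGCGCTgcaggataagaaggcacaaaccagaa
PCDHB14, chr5:141223249-141223308: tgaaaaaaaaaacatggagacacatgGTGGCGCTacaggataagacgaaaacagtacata
PCDHGA2, chr5:141338691-141338750: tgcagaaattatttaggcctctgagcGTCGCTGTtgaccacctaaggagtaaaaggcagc
PCDHGA3, chr5:141343755-141343814: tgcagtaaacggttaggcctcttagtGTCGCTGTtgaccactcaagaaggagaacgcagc
PCDHGA10, chr5:141412919-141412978: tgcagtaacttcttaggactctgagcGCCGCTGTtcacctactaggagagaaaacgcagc
PCDHGC3, chr5:141475868-141475927: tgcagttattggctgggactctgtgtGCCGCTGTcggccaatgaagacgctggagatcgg

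Among these, PCDHB13, PCDHB14, PCDHB9, PCDHB16, PCDHGA10 and PCDHGC3 were among the 10 members with the highest mean level, whereas PCDHGA2 and PCDHGA3 were at 0 in every cell with an element of the same kind. The 3 spellings were chosen by reading the members' promoters and searched on both strands of all 35116 RefSeq promoters. GTGGCGCT was in 13 of 14 matched beta promoters and in 1.15% of all promoters. GTCGCTGT was in 5 of 13 alpha and 6 of 20 gamma promoters and in 0.652% of all promoters, and GCCGCTGT was in 11 of the 20 gamma promoters and in 1.63% of all promoters. Any of the 3 was found in 35 of 47 members and in 3.38% of all promoters, whereas the core CGCT alone was in 46 of 47 members and in 70.01% of all promoters. PCDHAC1, PCDHAC2 and PCDHB1 were among the 12 members with none of the 3 spellings in this window.

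The identity of the cells and the libraries were examined first. Of 8 haematopoietic markers, 6 were above 1 TPM in at least 1 cell, and their summed level ran from 0 to 63.5 TPM. The stem-cell receptor KIT led this list at 7.90 ± 9.43 TPM (SD, n = 56; above 1 TPM in 33 cells) and CD38 followed at 2.22 TPM (10 cells), whereas the transcription factor SPI1 and the granule enzyme MPO were at 0 in all 56 cells and the leukocyte marker PTPRC was above 0 in 1 cell. Of 4 mesenchymal markers, the collagen gene COL1A2 was above 1 TPM in no cell and COL1A1 in 28 cells. FN1 was above 1 TPM in 55 cells and the filament gene VIM in all 56 (TPM is exon reads scaled by gene length and by the total of the library). Of 4 epithelial markers, KRT18 was above 1 TPM in 52 cells, KRT8 in 31, CDH1 in 10 and EPCAM in 1. Of 10 neuronal markers, 9 were above 1 TPM in at least 1 cell, and their summed level ran from 8.11 to 243.99 TPM. DCX, a microtubule protein of migrating neurons, was above 1 TPM in none, and TUBB3, a neuronal tubulin, led the list at 84.1 ± 49.1 TPM (SD, n = 56). The cells fell into 2 library sets, 29 with cell numbers up to 65 and 27 with higher numbers, which the labels do not describe. In the first and the second set, the mitochondrial share of TPM had medians of 11.1% and 3.28% and the number of genes above 1 TPM had medians of 13023 and 13703. The summed unspliced values, whose unit is not settled, had medians of 812254 and 568578. Because the authors had reduced the reads to a common number per cell, read depth before that step is not known here.

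The first question was when the cluster replicates. A replication score, the percentage of called 40-kb bins at 2 copies, lay between 40 and 70% in 55 of the 56 cells, and the states were described in those 55. The clustered protocadherins lay between stretches that were at 2 copies in more cells. In the bins upstream of the alpha genes, up to 54 of 55 cells were at 2 copies (98.2%), and downstream of the gamma genes the share reached 78.2% at chr5:141800001-141840000. Between these, the share was lowest at 27.3% in 2 adjacent bins, chr5:141200001-141280000, which hold the 3′ beta genes. Farther downstream, within 1 Mb of the cluster, the share was again as low, at 27.3% in chr5:142440001-142480000.

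**Figure D1:**
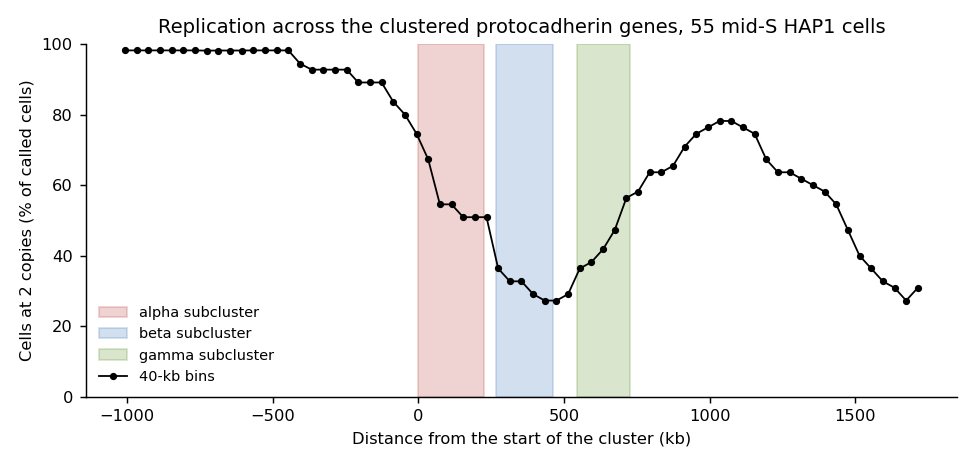
Percentage of called cells at 2 copies (y axis) in each 40-kb bin against the distance in kb from the start of the cluster (x axis), with the alpha, beta and gamma subclusters shaded. The share falls across the alpha genes, has its lowest value within the cluster, 27.3%, at the end of the beta genes and climbs again across the gamma genes, and it reaches 27.3% once more near the right edge of the plot.

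By gene, the first alpha gene PCDHA1 was at 2 copies in 30 cells and at 1 copy in 25 (54.5%, exact 95% interval 40.6 to 68.03%). The beta gene PCDHB14 was at 2 copies in 15 cells and at 1 copy in 40 (27.3%, 16.1 to 41.0%). The last gamma genes, PCDHGC4 and PCDHGC5, were at 2 copies in 31 cells and at 1 copy in 24 (56.4%, 42.3 to 69.7% for PCDHGC4). Intervals cover counting error only. The alpha genes ranged from 50.9 to 54.5%, the beta genes from 27.3 to 36.4% and the gamma genes from 41.8 to 56.4%. The median member was at 2 copies in 44.2% of cells and the median of all genes in 81.8%, and 20.7% of all genes had a share below the lowest member. The shares are not separate measurements, since each gene carries the averaged state of its bins. Only 15 distinct state patterns occurred over the 53 members.

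Copy states were also followed along single cells. Along the 19 bins that overlap the cluster, 12 cells were at 2 copies throughout and 8 at 1 copy throughout. In 15 cells only the alpha end was at 2 copies, in 5 cells only the gamma end, and in 14 cells both ends were at 2 copies with 1 copy between them. The inverse, 2 copies inside and 1 copy at both ends, occurred in 1 cell. An end could be as short as 1 bin, so these counts do not require a replicated member. In the cell numbered 50, counted under the alpha end, 1 bin and 0 members were at 2 copies, and in the cell numbered 28, 2 bins and 0 members. PCDHA10 was at 2 copies and PCDHB14 at 1 copy in 14 cells, against 1 cell the other way round. Likewise, PCDHGC4 was at 2 copies and PCDHB14 at 1 copy in 19 cells, against 3 cells the other way round. Between PCDHA10 and PCDHGC4 the discordant cells were split 8 and 11, so neither of these genes was ahead in most cells. PCDHA10 lies inside the cluster, however. In the outermost bins the share at 2 copies was 74.5% at the alpha end and 56.4% at the gamma end. Cells at 2 copies throughout had a median replication score of 61.4% (46.0 to 67.2%), and cells at 1 copy throughout had a median of 42.8% (40.1 to 56.3%). The copy state of a member is thus tied to S-phase progression, and every comparison between 2-copy and 1-copy cells below is also one between later and earlier cells.

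The second question was which members each cell expressed. Spliced RNA is given in TPM from exon reads. The gene length listed with these values equals the exon length of GENCODE v44 in 16 members, the beta genes. For alpha and gamma genes it equals the whole gene span (226212 bases in PCDHA1, against 5595 exon bases). The listed length also differs within these subclusters, with 211320 bases in PCDHA3 and 45878 in PCDHAC2, and 182462 in PCDHGA1 and 37031 in PCDHGC3. Whether TPM was scaled by this listed length was not tested. Levels and the 1 TPM threshold may thus not be comparable between subclusters, or between genes within alpha and gamma. This limit holds for every ranking by level and every leading gene given here. Of the 53 members, 47 were above 1 TPM in at least 1 cell, and none was above 1 TPM in over 50% of cells. For comparison, 57.4% of all 45404 genes were above 1 TPM in some cell and 20.5% in over 50% of cells. Expression was sparse: of 2968 values over members and cells, 2408 were at 0, 211 were above 0 but at most 1 TPM, 271 were above 1 and at most 10 TPM, and 78 were above 10 TPM. PCDHA7, PCDHGA2, PCDHGA3 and the C-type gene PCDHGC5 were at 0 in all 56 cells, which allows detection in up to 5.36% of cells, and PCDHA13 and PCDHGA1 stayed under 1 TPM.

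**Figure D2:**
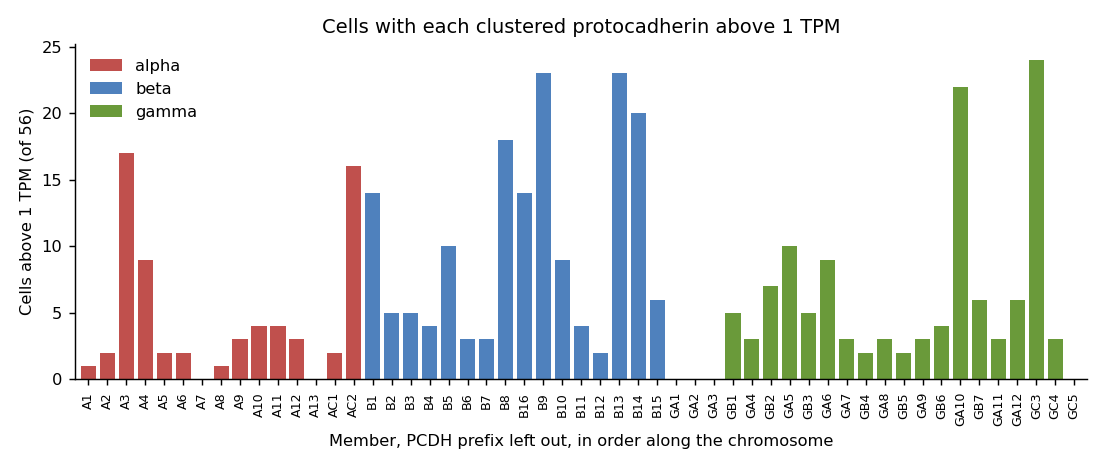
Number of the 56 cells (y axis) in which each member was above 1 TPM, in order along the chromosome (x axis) and coloured by subcluster. PCDHGC3 was above 1 TPM in the most cells (24), and 6 members were above 1 TPM in none.

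The C-type genes were not alike. PCDHAC2 had the highest mean of all members at 5.43 ± 10.4 TPM (SD, n = 56), with a median of 0 and a highest value of 35.3 TPM. It was either at 0, in 40 cells, or at 6.22 TPM and above, in 16 cells, with no value between. PCDHGC3 had 0, 0 and 30.2 TPM as lowest, median and highest value and was above 1 TPM in 24 cells. PCDHGC4 was above 1 TPM in 3 cells (up to 36.9 TPM) and PCDHAC1 in 2 cells (up to 10.99 TPM).

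Of the other alpha genes, PCDHA3 stood out, with 0, 0 and 31.8 TPM as lowest, median and highest value and 17 cells above 1 TPM. PCDHA3 and PCDHAC2 were both above 1 TPM in 5 cells, PCDHA3 alone in 12, PCDHAC2 alone in 11 and neither in 28. PCDHA4 was above 1 TPM in 9 cells, and the remaining alpha genes in 4 cells or fewer. Where an alpha gene was above 1 TPM, a single gene usually made up most of the alpha RNA: the leading gene held a median of 84.1% of the summed alpha TPM over 33 cells, and it was PCDHA3 in 13 of them and PCDHAC2 in 11.

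The beta genes were above 1 TPM in the most cells. At least 1 beta gene was so in 53 of 56 cells, against 33 cells for alpha and 41 for gamma. The subclusters are not measured alike, in the listed length and in shared exons. In GENCODE v44 each alpha gene shares at least 2869 exon bases with other members and each gamma gene at least 2177, whereas beta genes share none. PCDHB14 had 0, 0 and 53.3 TPM as lowest, median and highest value (20 cells above 1 TPM), and its neighbour PCDHB13 had 0, 0.215 and 42.0 TPM (23 cells). PCDHB13 and PCDHB14 were both above 1 TPM in 16 cells, PCDHB13 alone in 7, PCDHB14 alone in 4 and neither in 29. PCDHB9 was above 0 in 42 cells and above 1 TPM in 23 of them, with 0, 0.65 and 16.1 TPM. PCDHB8 reached 27.1 TPM and PCDHB16 19.6 TPM, each with a median of 0, in 18 and 14 cells above 1 TPM. The leading beta gene held a median of 57.8% of the beta sum, and 13 of the 16 beta genes led in some cell, PCDHB14 in 9 cells and PCDHB13 and PCDHB9 in 8 each. Beta sequences resemble each other, and 25.6% of the stretches of 100 bases in PCDHB8 exons and 24.7% of those in PCDHB10 also occur in another member, so the values of these genes are uncertain. In PCDHB13 the share was 15.1%. Among alpha and gamma genes it ran from 17.8% in PCDHA10 to 68.2% in PCDHGB4, with 46.6% in PCDHAC2, 44.3% in PCDHA3 and 36.4% in PCDHGC3. Their values are uncertain as well.

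In the gamma subcluster, PCDHGA10 had 0, 0 and 11.7 TPM as lowest, median and highest value (22 cells above 1 TPM), and PCDHGC3 and PCDHGA10 were both above 1 TPM in 14 cells. PCDHGB7 was above 1 TPM in 6 cells and reached 39.7 TPM. PCDHGC3 led the gamma sum in 17 of 41 cells and PCDHGA10 in 8. Means over all cells can rest on few cells here: 28 of the 47 members above 1 TPM anywhere were so in 5 cells or fewer.

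Cells differed in the combination. A cell had between 0 and 15 members above 1 TPM, on average 6.23 ± 3.33 (SD, n = 56), with 6 in the median cell. For alpha, beta and gamma the medians were 1, 3 and 1 member. In 55 cells at least 1 member was above 1 TPM, and these 55 cells held 55 distinct combinations. At 5 TPM, 50 cells had at least 1 member, with 44 distinct combinations. Combinations of 53 sparsely detected genes can differ between cells through detection alone, so these counts do not test promoter choice. Whether they differ from those of other sparsely detected genes was not tested. The summed level over the 53 members ran from 2.18 to 175.9 TPM with a median of 43.1, and the leading member held a median of 41.9% of it. In 24 cells all 3 subclusters had a member above 1 TPM.

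**Figure D3:**
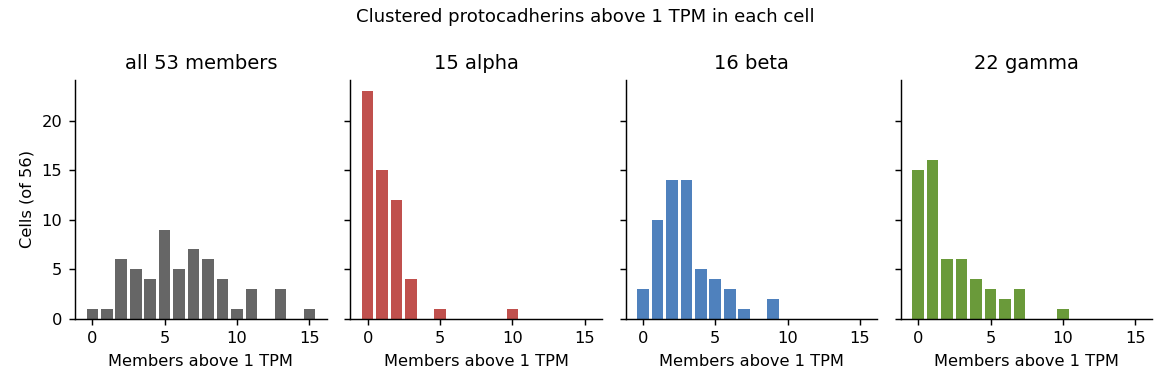
Number of cells (y axis, of 56) by the number of members above 1 TPM in the cell (x axis), for all 53 members and for each subcluster. Most cells had 0, 1 or 2 alpha members, whereas 29 cells had 3 or more beta members.

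The number of members per cell was followed against the properties of the library. Over 56 cells, Spearman's rho was 0.43 with the number of genes above 1 TPM in the same cell and -0.14 with the replication score. Within the first and the second library set, the rho with the number of genes was 0.41 and 0.66, and the rho with the score was -0.35 and 0.14, of opposite sign. The median number of members was 6 in the first set (2 to 15) and 5 in the second (0 to 13). Between subclusters the counts showed no common trend (rho 0.01 for alpha and beta, 0.04 for alpha and gamma, -0.01 for beta and gamma). Cells at 2 copies throughout the cluster had a median of 6 members above 1 TPM (2 to 13), and cells at 1 copy throughout had 6.5 (3 to 13).

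A group of members was detected often but at low values. PCDHA4, PCDHA9, PCDHA10, PCDHB1, PCDHB9, PCDHGA5, PCDHGA6 and PCDHGA8 were each above 0 but at most 1 TPM in 10 or more cells. In GENCODE v44 several of these genes have long exon stretches (12358 bases in PCDHA10, 10557 in PCDHA4, 7973 in PCDHB1, 6900 in PCDHA9), and across the 53 members the length of the longest exon stretch and the number of cells with such low values had a Spearman's rho of 0.58. The part of exon length in the low values was not tested. The files were made with GENCODE v38.

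Unspliced RNA, gene-body reads less exon reads, behaved differently in the 3 subclusters. Its values are labelled TPM, whereas the methods describe read counts, and they are given here in the units of the table. All 16 beta genes, which have no intron, were at 0 in every cell. In the alpha and gamma subclusters the gene bodies are nested, with a shared 3′ end, so the values are not separate measurements. In 52 cells at least 5 gamma members had the same unspliced value above 0, and in 50 cells at least 5 alpha members did. The outermost genes, whose bodies span their whole subcluster, had the highest or tied highest value in all 56 cells. PCDHA1 had 0.02, 2.31 and 245 units as lowest, median and highest value, and PCDHGA1 had 0, 1.08 and 102.2, although their own spliced RNA was above 1 TPM in 1 cell and in none. Unspliced RNA of a single alpha or gamma gene can therefore not be told apart from that of the genes nested within it.

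Cells with a higher unspliced value in the outermost gene had more members of its subcluster above 1 TPM. Over 56 cells, Spearman's rho between unspliced PCDHGA1 and the number of gamma members above 1 TPM was 0.88, and it was 0.87 and 0.88 within the first and the second library set. For PCDHA1 and the alpha members it was 0.77, and 0.81 and 0.77 within the sets. Each point takes both measures from the same library. The unspliced value is gene-body reads less exon reads, and first exons of nested members lie within the body of the outermost gene. Reads on those exons could therefore count in both measures, so the rho values cannot show a link between separate measurements. The part of such reads was not tested. The cell numbered 50 was the extreme: unspliced PCDHA1 stood at 245 units and 10 alpha members were above 1 TPM. In it PCDHA4 was at 16.04 TPM, PCDHAC2 at 13.95 TPM and PCDHA3 at 10.4 TPM. Its PCDHA1 state, averaged over the gene body, was 1-copy, but the outermost alpha bin, which holds the PCDHA1 start, was at 2 copies. The cell numbered 18 had 90.6 units of PCDHGA1 and 10 gamma members above 1 TPM. Without the 3 cells highest in unspliced PCDHA1, no cell had more than 5 alpha members above 1 TPM, and the median of 1 was the same.

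**Figure D4:**
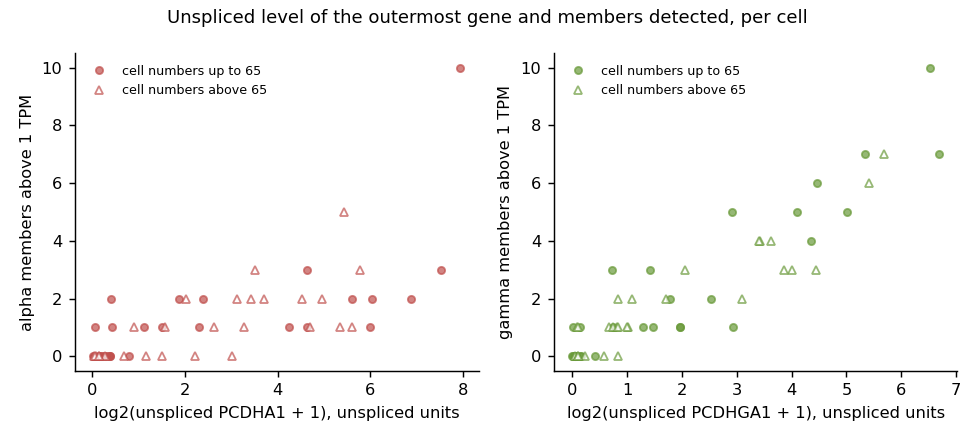
Members above 1 TPM in a cell (y axis) against log2(unspliced value + 1) of the outermost gene (x axis, unspliced units), for alpha with PCDHA1 and gamma with PCDHGA1, where each point is 1 cell and open triangles are cells numbered above 65. The number of members climbs with the unspliced value in both subclusters and in both library sets, but reads on nested members could count on both axes.

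The third question was whether members were expressed at another level once replicated. For this, spliced TPM in 2-copy cells was set against that in 1-copy cells with the Wilcoxon rank-sum test (two-sided). The test was run on the 3544 genes that were above 0 in at least 20% of cells and had both states well represented, with Benjamini-Hochberg adjustment. Of the 53 members, 18 passed this filter, and 1 of them had an unadjusted p under 0.05, against 7.51% of all genes tested (5.02% higher and 2.48% lower at 2 copies). No member and no other gene had an adjusted p under 0.05. Over the 18 members the median log2 difference (log2(TPM + 1), 2-copy minus 1-copy) was -0.02, with 8 positive and 10 negative, and over all genes tested it was 0.04.

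**Figure D5:**
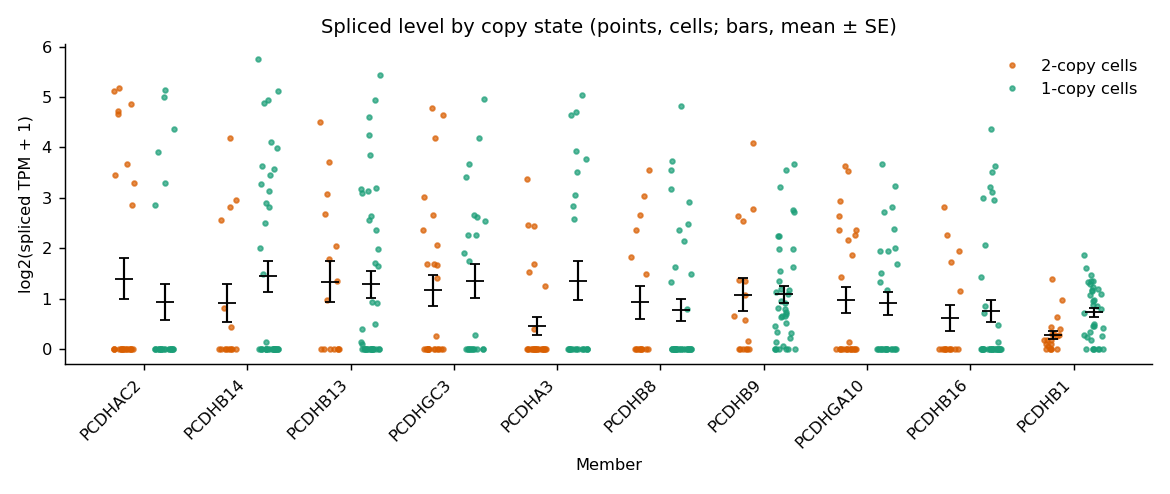
log2(spliced TPM + 1) (y axis) in 2-copy and 1-copy cells for the 9 members with the highest mean and for PCDHB1 (x axis), with points for cells and bars for the mean ± SE. The groups overlap for all 10 members, and cells at 0 are present in both states throughout.

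The member past the unadjusted threshold was PCDHB1, the beta gene at the 5′ end of its subcluster. Its lowest, median and highest values were 0, 0.14 and 1.64 TPM in 20 2-copy cells, against 0, 0.74 and 2.67 TPM in 35 1-copy cells. PCDHB1 was above 1 TPM in 1 of the 2-copy cells and in 13 of the 1-copy cells, and the groups overlapped below that. The log2 difference was -0.44 ± 0.12 (SE), with a permutation p of 0.00684 and an adjusted p of 0.454 (Wilcoxon, Benjamini-Hochberg over all genes tested). PCDHB1 also moved with the library set: it was above 1 TPM in 13 of 29 cells of the first set and in 1 of 27 of the second, and the 2-copy cells numbered 7 in the first set and 13 in the second. Within the first set the log2 difference was -0.53 and within the second -0.14. The mean replication score was 58.4% in its 2-copy and 51.1% in its 1-copy cells, and on residuals of the score the unadjusted Wilcoxon p was 0.109, above the threshold.

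For the members with the highest levels, differences by copy state were within the spread between cells. PCDHAC2 averaged 6.79 ± 11.6 TPM in 27 2-copy cells and 4.38 ± 9.66 TPM in 26 1-copy cells (SD), with 9 and 6 cells above 1 TPM, a log2 difference of 0.46 ± 0.53 (SE) and a permutation p of 0.425. PCDHA3 averaged 0.865 ± 2.09 TPM in 28 2-copy cells and 5.46 ± 9.26 TPM in 25 1-copy cells, with a log2 difference of -0.89 ± 0.42 and a permutation p of 0.149. PCDHB14 averaged 2.40 ± 4.75 TPM in 15 2-copy cells and 6.19 ± 11.6 TPM in 40 1-copy cells, with a log2 difference of -0.53 ± 0.48 and a permutation p of 0.557. All 3 were at 0 in most cells of both states. PCDHB13, PCDHB8, PCDHB9, PCDHB16, PCDHGA10 and PCDHGC3 had log2 differences between -0.18 and 0.15, and their adjusted p lay above 0.9. Their standard errors ran from 0.33 to 0.48 on the same scale. Differences of that size or smaller were not detectable with these cells, and larger ones could also be missed. PCDHGB7, the tenth by mean level, was above 0 in too few cells for the test and was above 0 in 0 of 26 2-copy cells and in 7 of 29 1-copy cells.

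In unspliced RNA, 36 members passed the same filter among 4574 genes, and 0 had an unadjusted p under 0.05 by the Wilcoxon test, against 6.62% of all genes tested (3.94% higher and 2.69% lower at 2 copies). The lowest was 0.117, and 0 genes had an adjusted p under 0.05. With a count model in its place (edgeR, quasi-likelihood, rounded values, TMM), 6 of the 36 had an unadjusted p under 0.05. All 6 were lower at 2 copies (PCDHA1, PCDHA2, PCDHA3, PCDHA5, PCDHAC2 and PCDHGA11). Each fit split the cells by the state of a member and tested all 16070 genes on that split, not on their own states. Pooled over the 8 fits of distinct member states, 16.2% of gene results had such a p, near the share of members. These edgeR shares are thus not comparable with the Wilcoxon shares of all genes. With DESeq2 size factors the number of members was also 6, beside 16.3% of gene results. PCDHAC2 alone had an adjusted p under 0.05 (0.00922 with edgeR and TMM, as did 6.32% of genes when cells were split by the states of PCDHAC2). It averaged 0.0207 units in 2-copy cells and 0.624 units in 1-copy cells, and the cell numbered 50, at 1 copy, had 13.9 units. Without that cell the 1-copy mean of PCDHAC2 was 0.092 units and edgeR's adjusted p was 0.445 (6.14% of genes called). The members with an unadjusted p under 0.05 then numbered 2 (PCDHA1 and PCDHGA11), beside 16% of genes.

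Genes that act on the clustered protocadherins were listed beside them. All 20 listed regulators of their promoters had a mean above 1 TPM. The corepressor TRIM28 was highest at 1134 ± 317 TPM and the DNA methyltransferase DNMT3B lowest at 5.48 ± 6.89 TPM (SD, n = 56), and CTCF was above 1 TPM in all 56 cells (8.82 to 164 TPM). Of the 4 tested for copy state in spliced RNA none had an unadjusted p under 0.05, and in unspliced RNA 1 of 3 did, the cohesin subunit SMC3, higher at 2 copies (log2 difference 1.00, adjusted p = 0.614, Wilcoxon). Of 18 partners and processing enzymes, all had a mean above 1 TPM, from 4.25 TPM for the kinase PTK2B to 245 TPM for the junction protein CTNNB1. ADAM10, a protease that cuts these proteins at the cell surface, was above 1 TPM in all 56 cells. For copy state, 2 of the 18 were tested, in spliced and in unspliced RNA, and none had an unadjusted p under 0.05.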

How the data were processed

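DNA and RNA of single mid-S HAP1 cells were read from the deposited tables (56 cells; 7 other labelled cells were not analysed here). For the DNA, the authors used BWA 0.7.17-r1188 with hg38, called 40-kb bins as 1-copy or 2-copy with G1 cells as baseline, and gave each gene the averaged state of its bins (1, -1, or 0 for no call). The deposited spliced values are TPM from exon reads, computed by the authors with the ramdaq pipeline and GENCODE v38 after reads were reduced to a common number per cell. The deposited unspliced values are labelled TPM, whereas the methods describe gene-body reads less exon reads with negatives set to 0 by the authors. These deposited values were treated as estimated counts, since their totals differ between cells (425181 to 1353931) and 21.3% of values above 0 are whole, but the highest totals exceed the common read number given for the libraries. The unit of the deposited unspliced values is therefore not settled, and the edgeR results depend on it. The sources used here do not say how reads over overlapping genes were divided.

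Cells scored 40 to 70% entered the copy-state tests: two-sided Wilcoxon rank-sum tests on genes above 0 in at least 20% of cells, called in 50% of cells or more, and with at most 80% of the called cells in the same state, Benjamini-Hochberg adjusted over all genes tested, plus permutation p-values (100000 resamples) for members. Fold values are on the log2(value + 1) scale. edgeR 4.0.16 (TMM, or DESeq2 1.42.0 size factors) was run on rounded unspliced counts as an alternative. Scripts used Python 3.11.15 with scipy 1.17.1, and tests were checked on simulated data. For edgeR the simulated counts had the same spread setting in all genes, so that check does not give its error rate on these values. Named members were the 10 with the highest mean, the highest of each subcluster and any with an unadjusted p under 0.05. Other genes named with values were singled out after their values were seen. Members and gene lists were chosen with earlier results of these data known. All cells come from 1 experiment, so p-values measure only the spread between these cells.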

Additional observations from a re-analysis of the deposited data

How the results depend on the processing

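The number of members with an unadjusted copy-state p under 0.05 in spliced RNA was 1 with the stricter filter, with cells scored 45 to 65%, after subtraction of the cell mean and with the looser limit on states. It was 4 of 49 with no filter on low values, where 4.99% of all genes were called (PCDHB1, PCDHGB7 and PCDHGA11 lower and PCDHGB3 higher at 2 copies, the last 3 each above 0 in 7 cells or fewer), 2 of 18 on residuals of the replication score (PCDHAC2 and PCDHA9, both higher, beside 9.14% of genes) and 2 of 18 after subtraction of the library-set mean (PCDHB1 lower, PCDHGA8 higher, beside 7.39%). On residuals, cells at 0 are ranked by their score alone. In unspliced RNA the count of 0 became 2 of 36 on residuals (PCDHGC4 and PCDHGC5, higher, beside 9.03% of genes), 6 with edgeR and TMM, 6 with edgeR and DESeq2 size factors, and 2 with edgeR and TMM without the cell numbered 50, an alternative chosen after seeing the data. It was 0 under the other 7 alternatives. No member had an adjusted p under 0.05 under any alternative except PCDHAC2 in unspliced RNA with edgeR. Of the 10 named members tested, the log2 difference changed sign under the pseudocount of 0.1 or the library-set term only for PCDHB9 (0.001 with the term, against -0.009), and 6 of the 10 had opposite signs in the 2 library sets, examined after seeing the data. The median number of members per cell was 10 above 0 TPM, 3 above 5 TPM and 1 above 10 TPM. The estimated floor from shared exons was 0 TPM, since a member of the alpha and of the gamma subcluster was at 0 in every cell, so this alternative was the same setting as the reported one and tests nothing. The median share of cells at 2 copies over the members was 44.2%, and 40.7 to 43.4% under the 5 alternatives. No paired analysis was possible because the DNA and RNA libraries of a cell are never compared as groups and no other groups share numbers.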

Other observations

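Protocadherins and large cadherins outside the cluster were also measured. Of 20 listed genes, 15 had a mean above 1 TPM and 2 were above 1 TPM in all 56 cells, FAT1, a giant cadherin of cell contacts (127 ± 79.9 TPM, SD), and CELSR2, a planar polarity receptor (12.2 ± 8.55 TPM). PCDH15, a hair-cell protein, was at 0 in every cell. PCDH9, an adhesion protein of neurons, was above 1 TPM in 49 cells with a highest value of 123 TPM, and PCDH18 in 42 cells with a highest value of 241.5 TPM. PCDH9 and PCDH18 were singled out after their values were seen. Of the 9 tested for copy state in spliced RNA and the 7 tested in unspliced RNA, none had an unadjusted p under 0.05 (Wilcoxon).

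Around and within the cluster, 86 other genes of the table lay within 500 kb. The highest by mean level were DIAPH1, an actin regulator (134 ± 64.4 TPM), ANKHD1, an ankyrin-repeat protein (126 TPM), and NDUFA2, a subunit of mitochondrial complex I (82.8 TPM), and 6 were above 1 TPM in all 56 cells. In spliced RNA 2 of 13 tested were lower at 2 copies at an unadjusted p under 0.05 and none higher, beside 2.48% lower and 5.02% higher of all genes tested. In unspliced RNA 1 of 22 was higher and 1 lower, beside 3.94% and 2.69% of all genes (Wilcoxon), none with an adjusted p under 0.05. FCHSD1, which encodes a membrane-curving protein, averaged 3.95 TPM in 2-copy cells and 15.2 TPM in 1-copy cells (adjusted p = 0.254). DIAPH1 averaged 126 TPM in 32 2-copy cells and 148 TPM in 20 1-copy cells (adjusted p = 0.636). In unspliced RNA, TAF7, a subunit of the general transcription factor TFIID, was the higher one, with 12.7 units in 2-copy cells and 2.80 units in 1-copy cells (adjusted p = 0.674), and RELL2 the lower one, with 2.6 units in 2-copy cells and 5.45 units in 1-copy cells (adjusted p = 0.718).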
